A study of Mus musculus with 2 samples.

Results

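The genes described here encode enzymes of cholesterol and fatty acid synthesis, together with the sterol regulatory element-binding proteins (SREBPs) that switch them on and the proteins that control SREBP release. They were taken from a list of 31 genes, of which the 30 with a mean count of at least 10 over both libraries were measured, out of 14379 such genes among 54446 in all. The list holds 7 early mevalonate genes, 11 genes of the squalene and late sterol steps, 7 of fatty acid synthesis and 6 regulators. Its genes were listed by their known roles, but with earlier results of these data known. The minimum count is the one measured value in the rule. The cells were macrophages grown from C57BL/6 bone marrow, with 1 library of untreated cells (control) and 1 of cells exposed to IL-36 gamma, an inflammatory cytokine related to IL-1. Dose, length of exposure and the number and age of the mice are not stated in the labels.

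SREBPs are made as membrane proteins of the endoplasmic reticulum. When membrane sterol is low, the escort protein SCAP carries them to the Golgi, where proteases release the part that enters the nucleus, and when sterol is high the INSIG proteins hold SCAP back. In the nucleus SREBPs bind sterol regulatory elements, often beside a CCAAT box bound by NF-Y, and raise transcription of the mevalonate, sterol and fatty acid enzymes. Macrophages take up much of their cholesterol from lipoproteins and dead cells, and inflammatory stimuli are known to reshape their lipid synthesis.

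Depth was alike, at 17426367 control and 17267900 IL-36 gamma counts in genes. A single library per group gives no replicate spread, so no test was run. Ratios divide the IL-36 gamma count by the control count after scaling with TMM factors (a trimmed mean of ratios over all genes), and each has an exact 95% Clopper-Pearson interval, which covers counting error only and compares these libraries, not the conditions. A gene is called higher or lower where its whole interval lay above or below 1. The RNA is of whole cultures, in which fewer cells of a type and less RNA per cell cannot be told apart. Summed counts of 8 macrophage markers, mostly those of Lyz2, were 523187 and 496668. Of the markers, 3 were higher (37.5%) and 4 lower (50%), beside 20.2% and 16.5% of all measured genes. Among genes of at least 10 CPM (counts scaled to library size) in the control, as all 8 are, these shares were 27.6% and 20.3%. The ratios of the higher markers ran from 1.14 (Adgre1) to 1.35 (Fcgr1). Those of the lower ones ran from 0.786 (Mertk) to 0.987 (Lyz2). The markers Adgre1 (49439 and 53682 counts), Csf1r (26965 and 20786) and Lyz2 (404546 and 380329) were abundant in both libraries. The adipocyte genes Adipoq, Lep, Cidec and Cidea were at 0 counts in both. This allows up to 0.169 CPM in the control and 0.177 after IL-36 gamma, the level of 3 counts. Summed counts of 9 neutrophil markers went from 3369 to 5213 (ratio 1.62, 1.56 to 1.70), those of 5 stromal markers from 214 to 117, 0.574 (0.454 to 0.722), with Pdgfra at 0 in both, and those of 10 proliferation genes from 14636 to 12781, 0.917 (0.895 to 0.939). Of the 8 measured neutrophil markers, 7 were higher (87.5%) and 0 lower, beside 20.2% and 16.5% of all measured genes. The other neutrophil marker, Ly6g, had 8 and 9 counts, below the minimum. Summed counts of 6 dendritic cell markers were 30 and 26, and those of 6 lymphoid markers 18 and 6. Adipocyte marker Plin1 had 9 and 4. The part of these shifts in the values below was not tested.

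The promoter sequences that carry the known SREBP and NF-Y letters are shown first, because shared promoter elements are the known link among these genes. RefSeq windows from 250 bases before to 50 bases after a start site (GRCm38.p6, the assembly behind mm10) were found for 24 of the 31 genes. The sterol regulatory element was searched by its 10-base consensus, with at most 1 mismatch on both strands. It was present in 3 of the 24 genes (12.5%), Hmgcs1, Srebf2 and Nsdhl, against 2.22% of all 27025 genes in the table, and none of the 24 held it without a mismatch. The CCAAT box, read as CCAAT or, on the other strand, ATTGG, was present in 19 of 24 (79.2%), against 41.1% of all genes. Of the 24 genes, 5 had more than 1 window. By window, the CCAAT box was in 20 of 32 (62.5%), against 37.4% of all 32851 windows. All genes here means every gene in the promoter table, measured or not. A second SREBP recognition form, TCACNTGA, was found in 1, Insig2 (4.17%), against 4.78%. A match describes letters and is not evidence of binding, and no chromatin data bear on these sites here. Sterol elements with more than 1 mismatch or outside the windows were not searched. A gene without a match may therefore still hold such an element.

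The 250 bases before the start site are given 5′ to 3′ on the gene's own strand, with matches to the sterol regulatory element and to the CCAAT box in capitals. Hmgcs1, Srebf2 and Nsdhl hold the sterol element, and Cyp51 and Msmo1 are the sterol enzymes with the highest ratios below. The windows are chr13:119690101-119690350 for Hmgcs1, chr15:82147019-82147268 for Srebf2 and chrX:72918271-72918520 for Nsdhl, all on the plus strand, and chr5:4104698-4104947 for Cyp51 and chr8:64733579-64733828 for Msmo1, both on the minus strand.
Hmgcs1: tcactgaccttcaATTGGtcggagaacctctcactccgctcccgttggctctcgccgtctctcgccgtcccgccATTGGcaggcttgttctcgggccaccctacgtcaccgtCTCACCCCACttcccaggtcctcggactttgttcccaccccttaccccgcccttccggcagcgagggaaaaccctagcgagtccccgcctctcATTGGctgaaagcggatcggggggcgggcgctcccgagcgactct
Srebf2: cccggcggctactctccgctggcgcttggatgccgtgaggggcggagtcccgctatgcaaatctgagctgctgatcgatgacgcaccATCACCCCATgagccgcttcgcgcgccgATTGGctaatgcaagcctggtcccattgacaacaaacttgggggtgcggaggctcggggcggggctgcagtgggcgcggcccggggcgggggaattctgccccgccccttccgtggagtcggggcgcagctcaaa
Nsdhl: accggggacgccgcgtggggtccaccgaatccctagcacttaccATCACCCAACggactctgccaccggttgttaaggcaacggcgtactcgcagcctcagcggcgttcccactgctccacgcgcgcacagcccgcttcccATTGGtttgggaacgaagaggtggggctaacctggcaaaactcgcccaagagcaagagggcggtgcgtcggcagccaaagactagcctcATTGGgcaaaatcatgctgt
Cyp51: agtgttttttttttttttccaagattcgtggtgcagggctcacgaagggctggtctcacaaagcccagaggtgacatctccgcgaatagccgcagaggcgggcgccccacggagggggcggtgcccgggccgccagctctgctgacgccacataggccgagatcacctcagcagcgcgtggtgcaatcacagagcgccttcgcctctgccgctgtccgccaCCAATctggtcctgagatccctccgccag
Msmo1: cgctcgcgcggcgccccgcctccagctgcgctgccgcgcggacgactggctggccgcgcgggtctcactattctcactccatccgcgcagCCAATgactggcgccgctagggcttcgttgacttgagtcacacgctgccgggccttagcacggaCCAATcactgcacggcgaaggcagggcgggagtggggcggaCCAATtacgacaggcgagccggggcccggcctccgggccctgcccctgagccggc
The sterol element begins 138 bases before the start in Hmgcs1, 163 in Srebf2 and 206 in Nsdhl, each time on the strand of the gene. The first CCAAT box downstream of it lies 45 bases before the start in Hmgcs1, 135 in Srebf2 and 109 in Nsdhl. Cyp51 holds 1 CCAAT box, 29 bases before the start, and Msmo1 holds them 160, 96 and 55 bases before it. These 5 genes had ratios from 1.09 (Srebf2) to 1.35 (Cyp51), and for Hmgcs1 and Nsdhl the interval included 1. Cyp51 and Msmo1 were shown because of their ratios, so this range does not relate promoter letters to ratios. The 19 genes with a CCAAT box had ratios on both sides of 1, from 0.817 (Tm7sf2) to 1.35 (Cyp51).

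Differences across the pathway were small and leaned upward. Of the 30 measured genes, 9 (30.0%) were higher with IL-36 gamma and 3 (10%) lower, beside 20.2% and 16.5% of all measured genes, and 18 had an interval that included 1. The higher genes were Scd2, Cyp51, Msmo1, Pmvk, Ebp, Insig1, Scap, Srebf1 and Srebf2, and the lower ones Fdft1, Tm7sf2 and Acaca. The ratio itself was over 1 for 23 genes (76.7%), beside 51.6% of all measured genes. The median log2 ratio was 0.15, beside 0.01 over all measured genes, whose middle 50% ran from -0.18 to 0.17. Only Cyp51, Msmo1 and Scd2 were higher by at least 25% (3 of 30, beside 6.59% of all measured genes), with Pmvk just short at a ratio of 1.245, 0 were lower with a ratio of at most 0.8 (beside 8.35%), and 0 had an interval beyond 2-fold in either direction (beside 0.0765% higher and 0.0904% lower).

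More abundant genes pass the interval rule more often. Among genes of at least 10 CPM in the control, 8 of 21 pathway genes (38.1%) were higher and 3 (14.3%) lower, beside 27.6% and 20.3% of all such genes. Of the 21, Msmo1 and Scd2 were higher by at least 25% (9.52%, beside 5.97%), 0 were lower with a ratio of at most 0.8 (beside 7.35%), and 0 had an interval beyond 2-fold (beside 0.0441% higher and 0.0441% lower). Scaling also bears on the split. Total counts in place of TMM gave 4 higher and 4 lower pathway genes. The share of calls that were higher thus went from 75% to 50%, and for all measured genes from 55% to 39.2%. Of the 12 calls, 5 held under each of the 3 other scalings and the 3 trend removals that were run, those of Scd2, Cyp51, Msmo1, Scap and Fdft1, and the other 7 were lost under at least 1 of these settings.

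**Figure D1:**
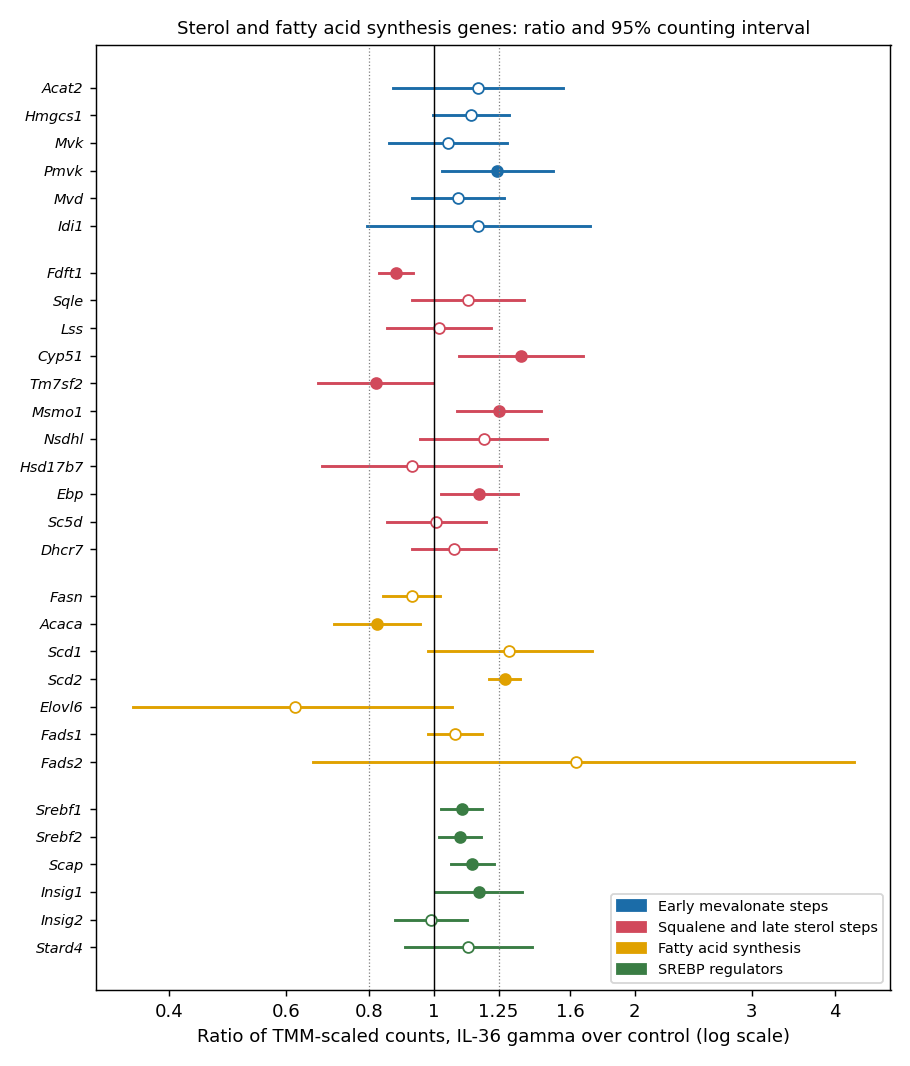
Ratio of scaled counts, IL-36 gamma over control (x axis, log scale), for the 30 measured genes by role. Points are ratios and lines their exact 95% counting intervals, filled points have an interval that excludes 1, and dotted lines mark 0.8 and its inverse. Scd2 (1.28), Cyp51 (1.35) and Msmo1 (1.252) lie highest among the filled points, and the intervals of Elovl6 and Fads2 are wide because both had few counts.

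The early mevalonate steps build isoprenoid units from acetyl-CoA. Acat2, the thiolase that opens the pathway, had 91 control and 101 IL-36 gamma counts, a ratio of 1.17 (0.869 to 1.56). Hmgcs1, the cytosolic synthase of the next step, had 440 and 477 counts, a ratio of 1.14 (0.998 to 1.30). Of the genes that follow, Pmvk, phosphomevalonate kinase, was the one called higher, from 204 to 242 counts (ratio 1.245, 1.03 to 1.51). Its partner Mvk, mevalonate kinase, had 195 counts in each library, a ratio of 1.05 (0.856 to 1.29). The steps around these kinases were not called either. Mvd, the decarboxylase that follows both kinases, had 311 and 322 counts, a ratio of 1.09 (0.927 to 1.27). Idi1, the isomerase that makes the second isoprenoid unit, had 54 and 60 counts, a ratio of 1.17 (0.794 to 1.72).

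All 6 measured early genes thus had a ratio over 1, beside 51.6% of all measured genes. Only Pmvk was called higher (16.7%) and 0 were lower, beside 20.2% and 16.5% of all measured genes. The call of Pmvk was lost with total counts (1.20), after removal of the length trend (1.15) and after removal of the GC trend (1.20). Hmgcs1 gained a call after removal of the GC trend (1.17). Their summed counts, Fdps included, went from 1302 to 1403 (ratio 1.13, 1.05 to 1.22), and their median log2 ratio was 0.20. The genes are short, with a median exon length of 2609.5 bases against 3890 for all measured genes, and short genes as a whole had higher ratios in these libraries. With the trend on exon length removed, the median was 0.15. Mvk (0.992) then no longer had a ratio over 1, and Mvd was at 1.005. Fdps, farnesyl diphosphate synthase, had 7 and 6 counts, below the minimum. Its exons share 1124 of 4208 bases with the gene Gm43738 on the same strand, and its count here is uncertain. The gene nearest above the minimum was Fads2, with a mean count of 11.5 against 6.5 for Fdps.

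Of the 11 squalene and late sterol genes, 3 were higher (27.3%) and 2 lower (18.2%), beside 20.2% and 16.5% of all measured genes. The largest ratio was that of Cyp51 (ENSMUSG00000001467, chromosome 5, 4081145 to 4104746, minus strand, mm10), the lanosterol demethylase, with 158 control and 203 IL-36 gamma counts, a ratio of 1.35 (1.09 to 1.67). Msmo1 (chromosome 8, 64718139 to 64733792), the methyl oxidase of the next steps, went from 343 to 409 counts (ratio 1.252, 1.08 to 1.45). Ebp, the isomerase that shifts a double bond in the sterol ring, went from 435 to 485 counts (ratio 1.17, 1.03 to 1.34). The first pair kept their calls under every scaling and trend removal run, from 1.30 to 1.37 for Cyp51 and from 1.20 to 1.29 for Msmo1. The call of Ebp was lost with total counts (1.13) and after removal of the length trend (1.09). Of Cyp51, 166 of 4415 exonic bases overlap Akap9 on the opposite strand, and Akap9 had a ratio of 0.692 (0.608 to 0.786).

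Nsdhl, the dehydrogenase that works with Msmo1 in removing methyl groups, had 161 and 182 counts, a ratio of 1.19 (0.955 to 1.48). Hsd17b7, the reductase of the same cycle, had 93 and 82 counts, a ratio of 0.926 (0.679 to 1.26). Members of a single enzymatic cycle therefore had ratios on both sides of 1, and neither of these was called. Sqle, squalene epoxidase, which adds the oxygen before ring closure, had 211 and 226 counts, a ratio of 1.12 (0.928 to 1.36). Lss, the cyclase that makes lanosterol, had 254 and 246 counts, a ratio of 1.02 (0.85 to 1.22). Sc5d, a sterol desaturase, had 279 and 268 counts, 1.01 (0.849 to 1.20), and Dhcr7, the reductase that makes cholesterol from its immediate precursor, 377 and 385 counts, 1.07 (0.928 to 1.24). For these last 4 genes the counts do not separate the libraries.

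Fdft1 and Tm7sf2 were lower. Fdft1 (chromosome 14, 63145150 to 63179578, minus strand), squalene synthase, which commits farnesyl units to sterols, went from 2376 to 1986 counts (ratio 0.877, 0.826 to 0.932). It held 48.3% of the counts of the late sterol group in the control and 42.7% after IL-36 gamma. Its exons overlap those of Ctsb on the opposite strand by 774 of 4227 bases. Ctsb, a cathepsin among the most abundant genes, had 233971 and 235635 counts, a ratio of 1.06 (1.05 to 1.06). The strand setting of the counting is not given, so reads of this pair cannot be told apart where they overlap, and the level of Fdft1 is uncertain. Tm7sf2, a sterol reductase, went from 235 to 183 counts (ratio 0.817, 0.670 to 0.996), and shares 532 of 4403 exonic bases with Vps51 on the same strand. Its call was lost when the trend on expression was removed (0.829).

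With Fdft1 the summed counts of the late group went from 4922 to 4655 (ratio 0.993, 0.954 to 1.03). Without it they went from 2546 to 2669 (ratio 1.10, 1.04 to 1.16). This leave-out was chosen after seeing the data. The median log2 ratio of the 11 genes was 0.10, and 0.13 without Fdft1.

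In fatty acid synthesis 1 of 7 genes was higher (14.3%) and 1 lower (14.3%), beside 20.2% and 16.5% of all measured genes. Scd2 (ENSMUSG00000025203, chromosome 19, 44293674 to 44306864, plus strand), a stearoyl-CoA desaturase that makes monounsaturated fatty acids, went from 2430 to 2956 counts (ratio 1.28, 1.21 to 1.35), and from 1.23 to 1.30 under the other scalings and trend removals. Its neighbour and close relative Scd1 had 93 and 115 counts, a ratio of 1.30 (0.979 to 1.73). Scd1 was not called, except after removal of the expression trend (1.34). The ratio of Scd1 over that of Scd2 was 1.02 (0.762 to 1.36), an interval that leaves room for unequal change. Per length, the level of Scd2 was 23.4 times that of Scd1 in the control and 23.0 times after IL-36 gamma. Reads shared by these close copies could be divided between them or dropped, and their number is not known.

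Acaca (chromosome 11, 84129672 to 84401651), acetyl-CoA carboxylase, which makes malonyl-CoA, went from 409 to 320 counts (ratio 0.821, 0.707 to 0.953). Fasn, fatty acid synthase, which joins these units into palmitate, had 861 and 759 counts, a ratio of 0.925 (0.838 to 1.02). Elovl6, which lengthens palmitate, had 39 and 23 counts, a ratio of 0.619 (0.353 to 1.06). Of Acaca, Fasn and Elovl6, only Acaca was called lower. It has the longest exons of the list, 17074 bases, and with the trend on exon length removed its ratio was 0.965 (0.831 to 1.12), which ended the call. Fasn had a ratio of 1.02 after the same removal, and was called lower with total counts (0.890) and after removal of the GC trend (0.889). Fads1, the delta-5 desaturase of polyunsaturated fatty acids, had 915 and 937 counts, a ratio of 1.08 (0.980 to 1.18). Fads2, its partner upstream, had 9 and 14 counts, a ratio of 1.63 (0.658 to 4.28), and the ratio of Fads1 over that of Fads2 was 0.658 (0.25 to 1.64).

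Scd2 held 51.1% of the counts of the group in the control and 57.7% after IL-36 gamma. The summed counts went from 4756 to 5124 (ratio 1.13, 1.09 to 1.18), and without Scd2 from 2326 to 2168 (ratio 0.978, 0.922 to 1.04). The median log2 ratio of the 7 genes was 0.10, and -0.0039 without Scd2. Leaving out Scd2 was also chosen after seeing the data, and the summed ratio without it had an interval that included 1.

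The regulators' ratios lay close together, from 0.989 to 1.17. Srebf1, which encodes the SREBP known mainly for fatty acid genes, went from 1505 to 1577 counts (ratio 1.10, 1.02 to 1.18). Srebf2, which encodes the SREBP known mainly for sterol genes, went from 1477 to 1540 counts (ratio 1.09, 1.02 to 1.18). The ratio of Srebf1 over that of Srebf2 was 1.0 (0.908 to 1.11), so no difference between them was detectable at this depth. Scap went from 1338 to 1455 counts (ratio 1.14, 1.06 to 1.23). Srebf1 lost its call with total counts (1.06) and after removal of the GC trend (1.06). Srebf2 lost its call with total counts (1.05) and after removal of the GC trend (1.05) or the expression trend (1.07). Scap ranged from 1.09 to 1.20 over the 6 settings and kept it. Of Scap, 985 of 7443 exonic bases overlap the gene 5830462I19Rik on the opposite strand, which had 236 and 187 counts.

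Insig1, whose transcription is itself raised by SREBPs, went from 340 to 378 counts (ratio 1.17, 1.01 to 1.36). Insig2, which has the same retention role, had 537 and 506 counts, a ratio of 0.989 (0.874 to 1.12). The ratio of Insig1 over that of Insig2 was 1.18 (0.971 to 1.43), an interval that includes 1. Per length, the level of Insig2 was 1.41 times that of Insig1 in the control library and 1.19 times in the other. The call of Insig1 was lost with each of the 3 other scalings (1.12 to 1.16) and after removal of the length trend (1.12). Stard4, a soluble sterol carrier known as an SREBP target, had 164 and 176 counts, a ratio of 1.13 (0.905 to 1.4). The median log2 ratio of the 6 regulators was 0.15, with 4 higher (66.7%) and 0 lower, beside 20.2% and 16.5% of all measured genes. Among genes of at least 10 CPM in the control, as all regulators but Stard4 are, these shares were 27.6% and 20.3%. With total counts 1 regulator was higher, beside 14.4% of all measured genes.

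Comparisons of summed counts between groups moved with the abundant genes Fdft1 and Scd2. The late group's summed ratio was 0.9 times that of the regulators (0.852 to 0.951) and 0.998 times without Fdft1 (0.934 to 1.07). The fatty acid group's was 1.03 times that of the regulators (0.971 to 1.08) and 0.887 times without Scd2 (0.827 to 0.952). The early group's was 1.03 times that of the regulators (0.942 to 1.12) and 1.14 times that of the late group (1.05 to 1.24). Without Fdft1 the late group's was 0.973 times that of the early group (0.886 to 1.07). The late group's was 0.878 times that of the fatty acid group (0.829 to 0.929), 0.973 times without Fdft1 (0.909 to 1.04), and 1.12 times without both Fdft1 and Scd2 (1.04 to 1.22). The early and fatty acid groups did not separate (1.0, 0.918 to 1.09), and the fatty acid group without Scd2 was at 0.865 times the early group (0.785 to 0.953). These comparisons do not depend on the scaling, and their exact conditional intervals cover counting error only. They were not adjusted for exon length, with which ratios fell in these libraries. Median exon lengths were 2609.5 bases for early, 4866 for late, 5464 for fatty acid genes and 5610 for regulators. With the length trend removed, the median log2 ratios of these groups were 0.146, 0.136, 0.11 and 0.182. The part of length in the summed comparisons was not tested.

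Levels were compared per length, as CPM per kilobase of exon. In the control the highest were Fdft1 (31.6), Scd2 (25), Srebf1 (15), Srebf2 (11.6) and Fads1 (10.7), and the lowest were Idi1 (0.867), Elovl6 (0.341) and Fads2 (0.154). The median level of the 30 genes was 3.44, beside 4.8 for all measured genes. With IL-36 gamma Scd2 (32.0) ranked above Fdft1 (27.7), and Srebf1 (16.5) and Srebf2 (12.7) kept the ranks that follow. The level and rank of Fdft1 are uncertain, because its exons overlap those of the far more abundant Ctsb. Apart from Fdft1, the genes of the sterol chain sat lower, from Ebp (10.6) and Mvd (9.41) down to Hsd17b7 (1.03) and Idi1.

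**Figure D2:**
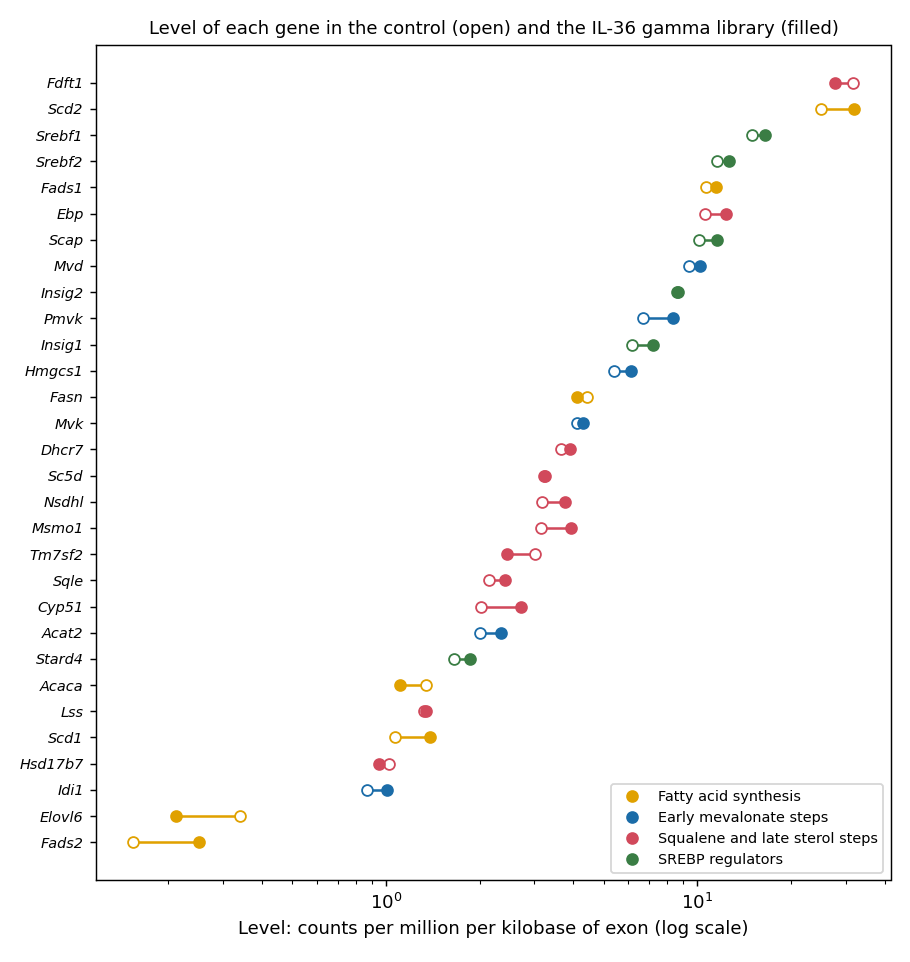
Level of each measured gene in CPM per kilobase of exon (x axis, log scale), open circles for the control and filled circles for the IL-36 gamma library, coloured by role. The spread between genes, from 0.154 to 31.6 in the control, is far wider than the shift of any gene between the libraries.

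Gene length moved with these ratios. Over the 30 genes, Spearman's rho between exon length and log2 ratio was -0.35 and Pearson's r on log2 length -0.39. These are descriptions over genes that share both libraries. Over 14373 measured genes with a known length, rho was -0.26 and r -0.16. The 6 pathway genes with exons under 3000 bases, Acat2, Mvk, Pmvk, Mvd, Nsdhl and Ebp, all had a ratio over 1. Of the 7 with at least 6000 bases, Lss, Msmo1, Srebf2 and Scap had a ratio over 1 and Fasn, Acaca and Elovl6 under 1. With the trend over all genes removed, rho over the pathway genes was 0.064 and their median log2 ratio 0.155, against 0.152 before.

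**Figure D3:**
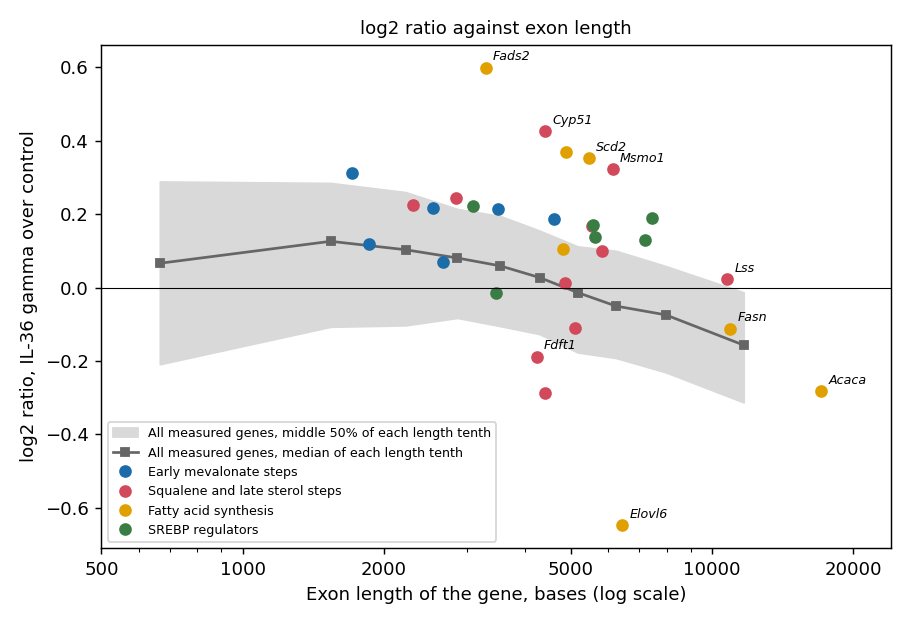
log2 ratio, IL-36 gamma over control (y axis), against exon length in bases (x axis, log scale). Coloured points are the 30 measured genes by role, grey squares the median of all measured genes in each of 10 equal groups by length, and the band their middle 50%. The grey median falls from 0.13 in the second group to -0.16 in the longest, where Lss, Fasn and Acaca lie.

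Genes that feed or surround the pathway, from 4 further lists of 48 genes, had 10 higher (20.8%) and 11 lower (22.9%), beside 20.2% and 16.5% of all measured genes. Their ratio was over 1 for 43.8%, beside 51.6%, and their median log2 ratio was -0.02, beside 0.01. Among 8 genes of acetyl-CoA and NADPH supply, 2 were higher (25%) and 1 lower (12.5%). Slc25a1, the mitochondrial citrate exporter, went from 1317 to 1448 counts (ratio 1.15, 1.07 to 1.24), a call lost after removal of the length trend (1.07, 0.995 to 1.16). Pgd, of the pentose phosphate pathway, went from 11736 to 12330 counts (ratio 1.10, 1.08 to 1.13). Idh1, the cytosolic isocitrate dehydrogenase, went from 3233 to 2771 counts (ratio 0.9, 0.855 to 0.947). Acly, which splits exported citrate into acetyl-CoA, had 3481 and 3272 counts, a ratio of 0.987 (0.940 to 1.04).

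Of 17 genes of fatty acid elongation, activation and storage, 6 were higher (35.3%) and 3 lower (17.6%), beside the same 20.2% and 16.5%. The elongation cycle had Elovl1 (1427 and 1642 counts, ratio 1.21, 1.12 to 1.30), Hacd2 (422 and 509, 1.27, 1.11 to 1.44) and Tecr (1637 and 1793, 1.15, 1.08 to 1.23) higher. The acyl-CoA synthetase genes Acsl5 (2437 and 2769 counts, ratio 1.19, 1.13 to 1.26) and Acsl3 (87 and 114, 1.38, 1.03 to 1.84) were higher as well, as was Dgat2, which makes triglycerides (42 and 62, 1.55, 1.03 to 2.35). Dgat2 falls outside the rule for named genes and was named after its value was seen. The calls of Tecr (1.07) and Dgat2 (1.48, 0.985 to 2.25) were lost after removal of the length trend. Gpam, the first step of glycerolipid synthesis, was lower (185 and 134 counts, ratio 0.760, 0.604 to 0.955). The phosphatidate phosphatase gene Lpin2 (2102 and 1849, ratio 0.923, 0.867 to 0.983) and the cholesterol esterifying gene Soat1 (4316 and 3909, ratio 0.951, 0.910 to 0.993) were lower too, but after removal of the length trend their ratios were both 1.03.

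Of 13 genes of SREBP processing, turnover and partner factors, 2 were higher (15.4%) and 4 lower (30.8%), again beside 20.2% and 16.5%. Both Golgi proteases that release SREBPs were lower, Mbtps1 from 1204 to 1024 counts (ratio 0.893, 0.821 to 0.971), and Mbtps2 from 583 to 444 (ratio 0.799, 0.705 to 0.906). Both are long, and after removal of the length trend the ratios were 0.975 (0.896 to 1.06) and 0.868 (0.765 to 0.983), so that Mbtps2 alone of the pair stayed lower. Mbtps2 shares 2867 of 10105 exonic bases with Yy2 on the same strand. Subunits of NF-Y differed, with Nfya lower (2447 and 2110 counts, ratio 0.905, 0.854 to 0.960), Nfyc higher (282 and 322, 1.20, 1.02 to 1.41) and Nfyb between them (207 and 199, 1.01, 0.826 to 1.23). Nfyb was named after its value was seen, and the calls of Nfya (0.949) and Nfyc (1.14) were lost after removal of the length trend. Sp1, a partner factor at many of these promoters, was lower (1222 and 969, 0.832, 0.764 to 0.906), and Ube2g2, a ubiquitin-conjugating enzyme of the degradation route, higher (1408 and 1599, 1.19, 1.11 to 1.28).

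**Figure D4:**
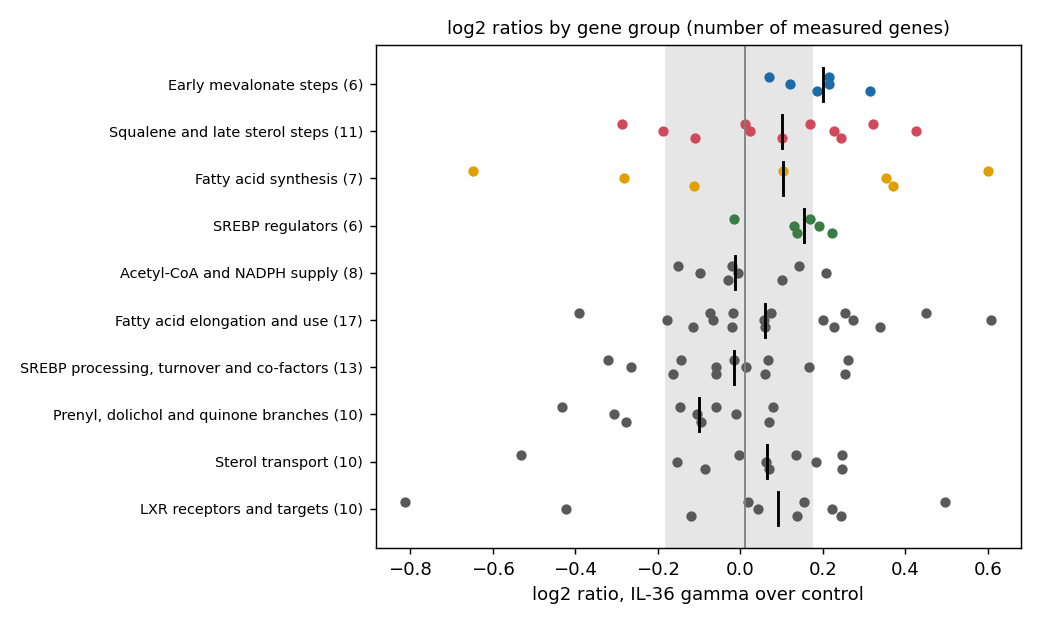
log2 ratio, IL-36 gamma over control (x axis), of each measured gene in the 4 role groups (coloured) and 6 surrounding lists (grey), with the number of genes in parentheses. Black bars are group medians, the vertical line the median of all measured genes (0.01) and the band their middle 50%. The 4 role medians, from 0.10 to 0.20, lie right of the line and within or just past the band. The fatty acid genes span the widest range among the role groups, from Elovl6 to Fads2, which both had few counts and were not called.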

How the data were processed

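RNA was taken with Trizol and sequenced after Illumina library preparation, per the labels' protocols. The authors deposited 1 raw count per Ensembl gene and library. Tools named in the submitters' processing notes are FastQC 0.11.8 and Trim Galore 0.6.1, then STAR 2.5.0a on mm10, and HTSeq. HTSeq options, strandedness and annotation release (not given in the sources used here) could change counts of overlapping genes. The 5 rows that name no gene took 47.2% (control) and 46.3% (IL-36 gamma) as reads in no gene, 1.795% and 1.84% as ambiguous and 6.65% and 6.92% as not uniquely aligned, and were left out. Names, exon lengths and positions came from GENCODE M21, matched without version numbers for 54409 of 54446 IDs.

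Counts were scaled with TMM factors (1.02 and 0.981) from edgeR 4.0.16 in R 4.3.3. No edgeR test was run, because there are no replicates. Ratios, intervals and ratios of ratios were computed with scipy 1.17.1 in Python 3.11.15. Medians of log2 ratios used a prior count of 2. PCR copies are not independent molecules, and neither intervals nor floors hold more than counting error. The ratio and trend steps were run on simulated data with counting error only. That checks the code, and says nothing on culture to culture variation or on the calls made here. The genes and lists were chosen with earlier results of these data known. Named genes are every listed pathway gene and, of the surrounding lists, up to 5 higher and 5 lower genes each, ranked by the bound nearest 1, with Ch25h, Nr1h3, Abca1, Acly, Mbtps1 and Mbtps2 in any case. Some genes of these pathways are not reported here.

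Other settings tried were scaling by total counts, by upper quartile or by size factors of DESeq2 1.42.0, removal of a lowess trend (span 0.3, statsmodels 0.14.6) on exon length, expression or GC content, other count minimums, prior counts, folds and intervals, protein-coding genes only, and genes without opposite-strand overlap. Leaving out Fdft1 or Scd2 was chosen after seeing the data.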

Additional observations from a re-analysis of the deposited data

How the results depend on the processing

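With 1 library per group, culture to culture variation was not measured, and the few counts of Elovl6 and Fads2 left intervals that included 1. With total counts, 4 pathway genes were higher and 4 lower, beside 14.4% and 22.4% of all measured genes. Of these, Cyp51 was the 1 higher by at least 25%, and 2 (Tm7sf2 and Acaca) had a ratio of at most 0.8. The median log2 ratio was then 0.10, with 0 early genes higher, 2 fatty acid genes lower, 1 regulator higher and a median of 0.10 for regulators, 0.043 for late genes and 0.047 for fatty acid genes. Total counts lower every ratio by 1 factor, and the median log2 ratio of all genes was -0.05 with total counts against 0.01 with TMM. With the length trend removed, 6 pathway genes were higher and 2 lower, 0 early genes were higher and 0 fatty acid genes lower. With the expression trend removed, 1 late gene was lower and 2 fatty acid genes (Scd1 and Scd2) higher. With the GC trend removed, the median was 0.11, 2 fatty acid genes were lower and 2 regulators higher. Among genes without opposite-strand overlap, 1 late gene was lower, 2 regulators were higher and the fatty acid median was 0.23, since Elovl6 is left out. With 99% intervals, 5 pathway genes were higher, 0 of them early and 2 of them regulators, and 1 late gene was lower. At 1.5-fold in place of 25%, 0 genes were higher. The mean log2 ratio in place of the median was 0.11. Without Fdft1, 1 late gene was lower. Without Scd2, 0 fatty acid genes were higher and their median was -0.0039. Apart from total counts, no share of all measured genes is set beside these counts, so they describe only how the calls moved. The cause of these changes was not tested unless stated. Of 219 recomputed counts and medians, 26 were set down as moved and 1 as reversed, the fatty acid median without Scd2. Only the medians could reverse, because a count of genes has no direction. Values among the other 192 could differ as well, such as the 6 higher genes with the length trend removed. No pathway gene changed direction while called. No paired analysis was possible because each group has 1 library.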

Other observations

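Genes that use or move the products of the pathway were mixed. Of 10 genes of the prenyl, dolichol and quinone branches, 0 were higher and 3 lower (30%), beside 20.2% and 16.5% of all measured genes, with a median log2 ratio of -0.10. The lower ones were Pggt1b, which attaches geranylgeranyl groups to proteins (453 and 356 counts, ratio 0.825, 0.716 to 0.950), Pdss1, which makes the side chain of ubiquinone (131 and 92, ratio 0.737, 0.558 to 0.970), and Nus1, of dolichol synthesis (2497 and 2225, ratio 0.935, 0.883 to 0.991). Ggps1, which makes geranylgeranyl diphosphate, had 329 and 283 counts, a ratio of 0.903 (0.768 to 1.06), and falls outside the rule for named genes. After removal of the length trend the list's median was -0.11, while Pggt1b had a ratio of 0.915 (0.794 to 1.05).

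Of 10 sterol transport genes, 4 were higher (40%) and 3 lower (30%), beside 20.2% and 16.5% of all measured genes and 27.6% and 20.3% of those of at least 10 CPM. Npc2, a lysosomal cholesterol carrier, had 21591 control and 24404 IL-36 gamma counts and a ratio of 1.19 (1.17 to 1.21). Gramd1a and Gramd1b, which move accessible cholesterol from the plasma membrane to the endoplasmic reticulum, went opposite ways, from 3636 to 4108 counts (ratio 1.19, 1.13 to 1.24) and from 2158 to 1422 (ratio 0.692, 0.646 to 0.740). After removal of the length trend these were 1.20 (1.15 to 1.26) and 0.750 (0.701 to 0.803). Stard3 (ratio 1.10) and Stard5 (1.14) were higher, and the lysosomal genes Scarb2 (0.899) and Lipa (0.941) lower. Of 10 genes of LXR, the nuclear receptors that oxysterols activate, and of related lipid handling, 4 were higher (40%) and 3 lower (30%), beside the same shares. The efflux pump gene Abca1 fell from 11063 to 5999 counts (ratio 0.569, 0.552 to 0.587, and 0.620 with the length trend removed), while the receptor genes Nr1h3 (1506 and 1673, ratio 1.17) and Nr1h2 (2312 and 2424, ratio 1.10), Lpcat3 (1007 and 1067, ratio 1.11) and Apoc1 (167 and 225, ratio 1.41) were higher. Of the higher genes of both lists, Stard3, Nr1h2 and Lpcat3 lost their calls after removal of the length trend. Cyp27a1 (365 and 259, ratio 0.745) and the lipid droplet gene Plin2 (39715 and 34802, ratio 0.920) were lower. Ch25h, which makes an oxysterol that blocks SREBP release, had 52 and 59 counts, a ratio of 1.19 (0.806 to 1.76).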
